A study of Mus musculus with 6 samples.

Results

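Neural crest cells migrate into the embryonic lung along the vagus and the foregut and form the intrinsic neurons and glia of the airways. 7 genes used as markers of these cells, some of them shared with other cells, were compared between control and mutant lungs: *Foxd3*, *Sox10*, *Ednrb*, *Ret*, *Phox2a*, *Tubb3* and *Elavl4*. They were taken by exact gene symbol, and all 7 were found among the 23420 genes listed for each library. RNA was sequenced from whole lungs of mouse embryos at stage E11.5dpc (days post coitus), in 3 control pools (genotype Raptorf/+; ShhCre/+) and 3 mutant pools (genotype Raptorf/f; ShhCre/+). Each pool held 3 or 4 lungs of a single genotype, and littermates served as controls. Both groups carry a Cre allele at *Shh* and at least 1 floxed allele of *Rptor* (*Raptor*), the gene of the scaffold protein of mTORC1, so the controls are not wild type. *Shh*Cre acts broadly in the lung epithelium, whereas the neural crest lies outside it, and the comparison therefore asks whether crest and neuron transcripts differed in lungs whose epithelium lacked mTORC1.

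Neural crest progenitors express the transcription factors FOXD3 and SOX10 and the endothelin receptor EDNRB. Cells that take the autonomic path switch on PHOX2A and the receptor RET, which answers GDNF family ligands through GFRA coreceptors, and then neuronal proteins such as the tubulin TUBB3 and the RNA-binding protein ELAVL4. Cells that stay SOX10 positive become glia. EDNRB and RET are best known in the gut, where loss of either leaves the distal bowel without ganglia.

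The values are normalized counts, obtained from reads by a library size factor, with totals of 20705058 to 20865998 per library. *Rptor* itself measured 2126, 2193 and 2279 in controls (pools 1, 2 and 3) and 2023, 2137 and 2148 in mutants, a difference of -0.06 on the log2 scale (adjusted p = 0.584, limma). Since the whole lung was sampled and mesenchyme also transcribes *Rptor*, this value does not measure its loss in the epithelium. The epithelial adhesion gene *Cdh1* fell from 1288–1522 in controls to 630–824 in mutants (log2 difference -0.97, adjusted p = 0.00728), and 7 of 20 epithelial marker genes were called lower. Control pool 3 stood farthest from its group, with a median absolute log2 difference of 0.127 from the other 2 control pools, against 0.06 to 0.108 in the other 5 pools. The pools also differed in sex makeup. *Xist*, the RNA of the inactive X chromosome, was 4599, 309 and 12989 in controls and 41.9, 466 and 161 in mutants (*Xist* was chosen after its values were seen). Female embryos therefore weighed more in control pools 1 and 3 than in the other 4. The difference between groups of each member, and of each gene named from the lists by its p, was recomputed without control pool 3 and with *Xist* as a covariate. The highest *Xist* values were those of control pools 1 and 3, so this covariate goes partly with genotype. It can take up part of the group difference, and sex makeup and genotype cannot be told apart in that fit.

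No member passed the test. With limma on log2(normalized count + 1) and Benjamini-Hochberg adjustment over 17168 tested genes, 0 of the 7 genes had an adjusted p under 0.05, beside 86 of all tested genes (0.501%). At an unadjusted p under 0.05 there was 1 of 7, *Ret*, beside 13.6% of all tested genes. On the recovered reads of 5 libraries, which leave out control pool 3, edgeR also called 0 of 7 (2 at an unadjusted p under 0.05, *Phox2a* and *Ret*), beside 3.68% of all genes. DESeq2 called 0 of 7 on the same reads (0 at an unadjusted p under 0.05), beside 3.08%. The groups did not overlap for *Ret* alone, beside 20.2% of all tested genes, so the share of separated members was near the background.

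**Figure D1:**
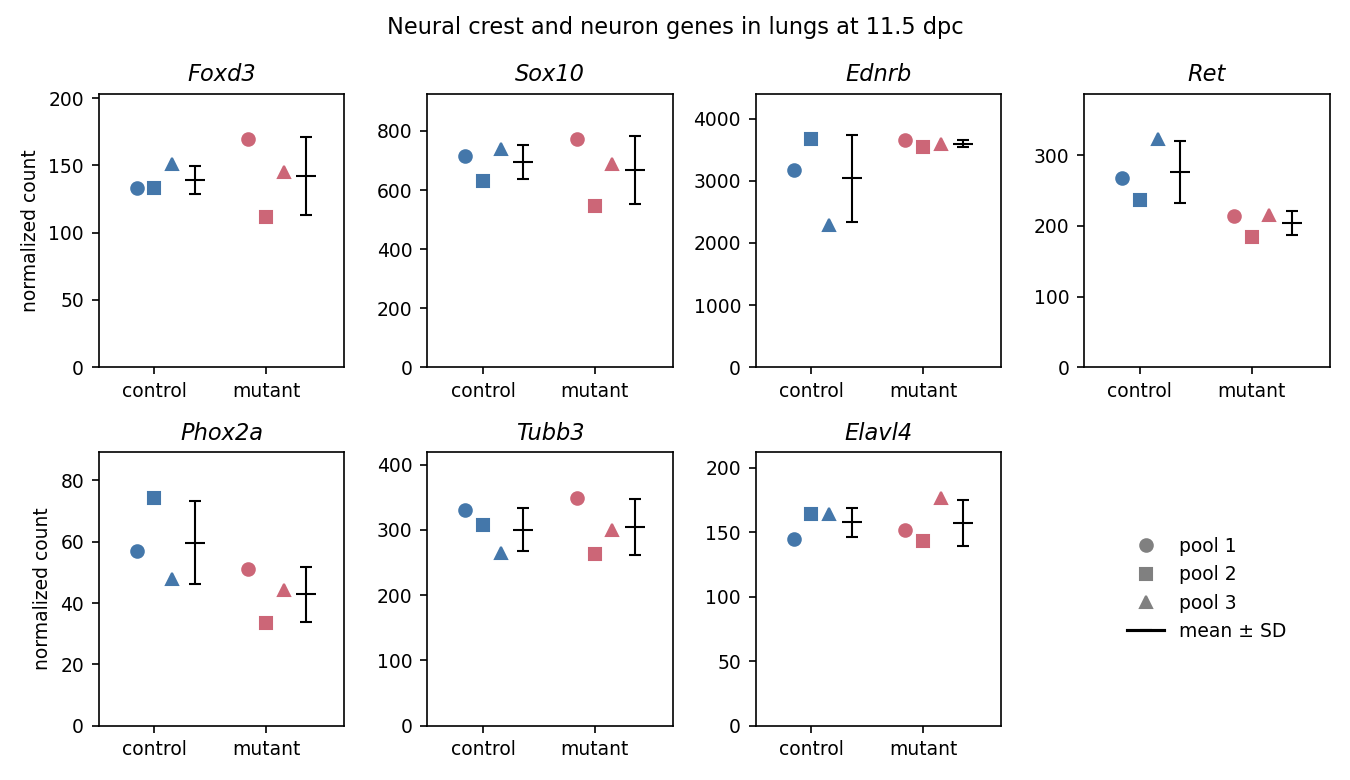
Normalized count (linear axis from 0) of each of the 7 genes in the 3 control pools (blue) and the 3 mutant pools (red), with marker shapes for pools 1, 2 and 3 and the mean ± SD of each group beside the points. *Ret* is the gene whose 3 mutant pools (184–215) all sit under its 3 control pools (237–323), and for the other 6 genes the groups overlap.

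*Foxd3* (chr4:99656299-99658622, plus strand, GRCm38) encodes a forkhead factor of early crest cells that keeps them multipotent. Its normalized count was 134, 133 and 151 in controls (139 ± 10.2, SD, n = 3) and 170, 112 and 145 in mutants (142 ± 29.0, n = 3). The highest and the lowest of the 6 values were both mutant pools, so the mutant range enclosed that of the controls. The log2 difference, mutant minus control, was 0.01 (SE 0.16, 95% interval -0.34 to 0.36, adjusted p = 0.983, limma).

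*Sox10* (chr15:79154908-79165240, minus strand) encodes the SOX factor that crest cells need to survive and that glia retain. It measured 714, 629 and 741 in controls (695 ± 58.2) and 772, 545 and 687 in mutants (668 ± 115). Again mutant pool 1 was the highest and mutant pool 2 the lowest of the 6, and the groups overlapped. The log2 difference was -0.07 (SE 0.12, 95% interval -0.32 to 0.19, adjusted p = 0.851). The interval leaves room for a *Sox10* level between 0.798 and 1.14 times that of the controls. *Foxd3* and *Sox10* kept nearly the same ratio to each other in every pool, with a log2 ratio between -2.41 and -2.18.

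Other crest and glial genes were taken from a list of 26 that contains *Sox10*, *Foxd3* and *Ednrb*. With limma 0 of the 26 were called, as with edgeR and DESeq2 on 5 libraries. At an unadjusted p under 0.05 in limma, 1 was higher and 1 lower (7.69%, beside 13.6% of all tested genes). The median log2 difference was 0.00, beside -0.00 over all tested genes. The gene higher at an unadjusted p was *Zeb2*, a zinc-finger repressor that the crest shares with mesenchyme, at 3281, 3593 and 3081 in controls and 3910, 3769 and 3674 in mutants (log2 difference 0.19, adjusted p = 0.176). *Sox8*, a SOX10 relative, was the lower one, at 155, 129 and 225 against 128, 104 and 134 (-0.44, adjusted p = 0.354). The difference of *Sox8* was -0.22 without control pool 3 (unadjusted p = 0.171) and -0.14 with *Xist* as a covariate (unadjusted p = 0.6), so its place at an unadjusted p under 0.05 was lost in both. Without control pool 2, *Zeb2* passed the test (0.25, adjusted p = 0.0497), whereas with *Xist* as a covariate its difference was 0.05 (adjusted p = 0.804). *Snai2*, a repressor of the crest and of mesenchyme, was lowest in control pool 3 (2022, beside 3013 and 3705 in the other controls and 3342–3965 in mutants). Its log2 difference was 0.34, 0.10 without control pool 3 and -0.01 with *Xist* as a covariate. Of 14 lung mesenchyme markers, 4 were called higher and 0 lower in limma, with a summed level of 102221–108109 in controls and 122776–130943 in mutants, and their part in the values of *Zeb2* and *Snai2* was not tested. *Tfap2b*, an AP-2 factor of crest and sympathetic cells, was spread from 57.8 to 387 over the pools, with the highest value in control pool 3 and the lowest in mutant pool 2. Its log2 difference of -0.85 had an interval of -1.99 to 0.30 and was -0.28 without control pool 3, -1.49 without control pool 2 and 0.03 with *Xist* as a covariate.

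*Ednrb* (chr14:103814625-103844402, minus strand), the receptor of endothelin 3, had the highest normalized counts of the 7. It was 3169, 3673 and 2285 in controls and 3657, 3549 and 3590 in mutants. The 3 mutant pools lay close together (3599 ± 54.3), while the controls were wide apart (3042 ± 702), with control pool 2 the highest of all 6 and control pool 3 the lowest. The log2 difference was 0.27 (SE 0.13, 95% interval -0.02 to 0.56, adjusted p = 0.404). Without control pool 3 the difference shrank to 0.08 (adjusted p = 0.506), and with *Xist* as a covariate it was -0.08 (adjusted p = 0.864), so its direction was not held. Vascular and mesenchymal cells can transcribe *Ednrb* too. The summed level of 10 endothelial markers was 13512–15388 in controls, lowest in control pool 3, and 15695–16311 in mutants, and the sum of 7 smooth muscle markers was 7753–9452 and 10086–11066, and their part in the *Ednrb* value was not tested.

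In the endothelin list of 7 genes, limma, edgeR and DESeq2 each called 0. At an unadjusted p under 0.05 in limma, 1 was higher (14.3%, beside 13.6% of all tested genes), with a median log2 difference of 0.17. *Edn1*, a ligand made by endothelium and epithelium, was that gene, at 50.1, 49.6 and 62.6 in controls and 87.9, 70.6 and 86.4 in mutants. The groups did not overlap, with a log2 difference of 0.59 (SE 0.17, 95% interval 0.20 to 0.97, adjusted p = 0.176). With *Xist* as a covariate the *Edn1* difference was 0.63 (unadjusted p = 0.0366, adjusted p = 0.43, limma). *Edn3*, the ligand that crest cells meet along their route, measured 455, 428 and 433 against 439, 349 and 386 (log2 difference -0.17, interval -0.37 to 0.03). The related receptor gene *Ednra* (0.17, interval -0.04 to 0.38) and the endothelin-processing protease gene *Ece1* (-0.05, interval -0.21 to 0.10) had overlapping groups.

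*Ret* (chr6:118151745-118197718, minus strand) encodes the receptor tyrosine kinase of the GDNF family. It was 268, 237 and 323 in controls (276 ± 43.8) and 214, 184 and 215 in mutants (204 ± 17.3). Every mutant pool was under every control pool, although mutant pool 3 and control pool 2 were close. The log2 difference was -0.42 (SE 0.12, 95% interval -0.70 to -0.15), a level 0.746 times that of the controls, with an unadjusted p of 0.00669 and an adjusted p of 0.176. *Ret* ranked 651st of the 17168 tested genes by p. In whole-lung RNA, fewer *Ret*-expressing cells and less *Ret* RNA per cell cannot be told apart.

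The *Ret* difference stayed below 0 in each alternative that was run, but its size moved with the pools. Leaving out 1 pool at a time gave log2 differences of -0.53 to -0.30 (adjusted p = 0.0759 to 0.431), the smallest of them without control pool 3 and the largest without control pool 2. edgeR gave -0.31 (adjusted p = 0.156) and DESeq2 -0.31 (adjusted p = 0.44). With *Xist* as a covariate, which goes partly with genotype, it was -0.26 (unadjusted p = 0.162, adjusted p = 0.634, limma). *Ret* then no longer had an unadjusted p under 0.05. Within the controls, *Ret* and *Xist* ranked the pools in the same order, 3, 1 and 2. Within the mutants they did not, since pool 2 had the highest *Xist* and the lowest *Ret*. Between the groups, the summed level of 20 epithelial markers moved the same way as *Ret*, from 23310–26379 in controls to 18979–20477 in mutants. Within the controls the sum ran opposite to *Ret*, highest in pool 2 and lowest in pool 3. The part of the epithelium in the *Ret* value was not tested.

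Ratios within a library do not depend on its size factor, and 8 of them were compared with two-sided exact permutation tests, for which 3 pools against 3 cannot give a p below 0.1. The log2 ratio of *Ret* to *Sox10* was -1.41, -1.41 and -1.19 in controls and -1.85, -1.56 and -1.67 in mutants. All mutant pools were lower, by a mean of 0.36 on the log2 scale (mutant minus control -0.36, exact p = 0.1). The ratio of *Ret* to *Elavl4* was 0.89, 0.52 and 0.97 against 0.50, 0.36 and 0.28, also without overlap (-0.42, exact p = 0.1). The other 6 ratios overlapped between groups, with differences of -0.46 to 0.34 and exact p-values of 0.2 to 0.9. Both separated ratios share *Ret*, and the smallest possible p does not reach 0.05.

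**Figure D2:**
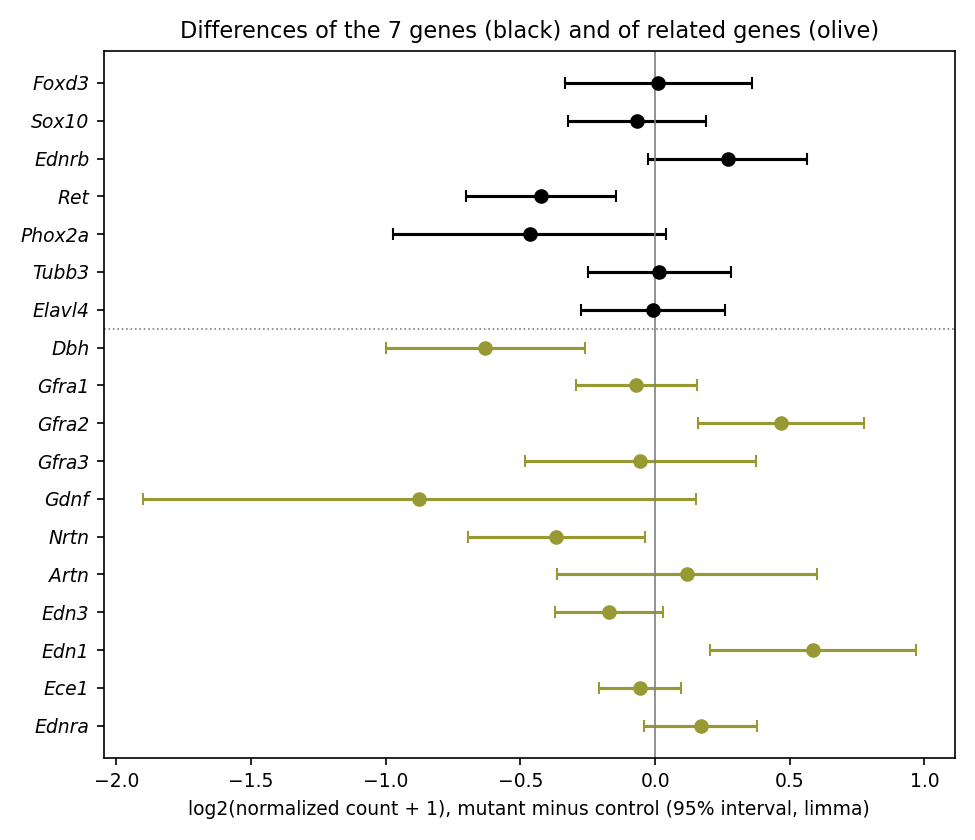
Mutant minus control difference on the log2(normalized count + 1) scale with its 95% interval from limma, for the 7 genes (black) and for related ligands, receptors and the autonomic gene *Dbh* (olive). *Ret* (-0.42), *Nrtn* (-0.37) and *Dbh* (-0.63) have intervals below 0, *Gfra2* (0.47) and *Edn1* (0.59) above 0, and none of these has an adjusted p under 0.05.

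RET works only with a GFRA coreceptor that binds the ligand, and these genes did not move in a single direction. In a list of 20 RET signalling genes limma called 0, edgeR 4 and DESeq2 3, beside 3.68% and 3.08% of all genes in those tools. At an unadjusted p under 0.05 in limma, 4 were higher and 4 lower, with a median log2 difference of 0.01. Together these are 40% of the list, beside 13.6% of all tested genes. Such a share was not particular to the RET list. Marker lists of other cells gave 0% (macrophage) to 85% (epithelium), with 42.9% for lung mesenchyme and 60% for endothelium. The RET list holds the general receptor tyrosine kinase adaptors and feedback genes as well as RET's own partners. *Gfra1*, the GDNF coreceptor, measured 1047, 1033 and 1303 in controls and 1182, 947 and 1090 in mutants, with overlapping groups (log2 difference -0.07, interval -0.29 to 0.16). *Gfra2*, the neurturin coreceptor, was 224, 299 and 198 against 308, 351 and 325. Here the mutant pools were all higher (0.47, adjusted p = 0.179). Without control pool 2 it passed the test (0.63, adjusted p = 0.0341), and with *Xist* as a covariate the difference was 0.20 (adjusted p = 0.725). *Gfra4*, the persephin coreceptor, was also higher in every mutant pool, at 202, 207 and 205 against 254, 282 and 272. Its log2 difference of 0.40 (SE 0.09) was the nearest to the threshold among the listed genes in limma (adjusted p = 0.0922), and edgeR called it on 5 libraries (adjusted p = 0.0468). With *Xist* as a covariate the *Gfra4* difference was 0.44 (unadjusted p = 0.00838, adjusted p = 0.267, limma). *Gfra3*, the artemin coreceptor, had overlapping groups (-0.05, interval -0.48 to 0.37), and its difference was 0.17 without control pool 2 and -0.50 with *Xist* as a covariate.

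Of the ligand genes, *Nrtn* (neurturin) was 102, 99.2 and 81.5 in controls and 73.6, 74.5 and 69.7 in mutants, lower in each mutant pool (log2 difference -0.37, interval -0.70 to -0.04, adjusted p = 0.312). *Gdnf* varied most between control pools, with 46.2, 23.8 and 112, against 19.4, 30.4 and 32.4 in mutants. Its groups overlapped, and the difference of -0.88 (interval -1.90 to 0.15) became -0.30 without control pool 3 and 0.46 with *Xist* as a covariate. *Artn* (artemin) lay between 30.8 and 48.1 in all pools.

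Among the intracellular genes of the list, *Grb7*, an adaptor that binds RET and other receptor kinases, was 777, 810 and 618 in controls and 628, 524 and 580 in mutants. Its groups overlapped by control pool 3 alone (log2 difference -0.34, adjusted p = 0.192). Without that pool it passed the test (-0.46, adjusted p = 0.00773), as it did in edgeR, in DESeq2 and with *Xist* as a covariate (-0.61, adjusted p = 0.0441). *Shc1*, an adaptor of many receptors, was 3587, 3415 and 3668 against 3770, 4017 and 3971 (0.14, adjusted p = 0.199) and passed in edgeR and DESeq2.

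*Phox2a* (chr7:101818313-101822726, plus strand) encodes a homeodomain factor of autonomic neurons and was the lowest of the 7 in counts. It was 57.0, 74.4 and 47.7 in controls (59.7 ± 13.5) and 51.1, 33.3 and 44.2 in mutants (42.9 ± 8.95). Mutant pool 1 exceeded control pool 3, so the groups overlapped. The log2 difference was -0.47 (SE 0.23, 95% interval -0.97 to 0.04, unadjusted p = 0.0683, adjusted p = 0.404). It was -0.30 without mutant pool 2 (unadjusted p = 0.233, limma) and -0.61 without control pool 3 (unadjusted p = 0.0217). With *Xist* as a covariate it was -1.0 (unadjusted p = 0.00333, adjusted p = 0.194). Of its exon bases 95 are shared with *Inppl1* on the opposite strand, whose mean normalized count was 4536. No strand setting of the counting is stated, so some reads at this gene may belong to either.

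*Dbh*, the enzyme that turns dopamine into noradrenaline, was 80.5, 87.8 and 109 in controls and 64.4, 54.9 and 57.9 in mutants, lower in each mutant pool (log2 difference -0.63, SE 0.17, adjusted p = 0.141). *Dbh* did not pass the test under any alternative, with an adjusted p of at least 0.122. Its difference was below 0 in all 16 settings, at -0.72 to -0.51. In limma it was -0.51 without control pool 3 (unadjusted p = 0.0139) and -0.59 with *Xist* as a covariate (unadjusted p = 0.0435). DESeq2 gave an unadjusted p of 0.0665.

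The list of 22 autonomic genes, 21 of which were tested, had 0 calls in limma, edgeR and DESeq2. At an unadjusted p under 0.05 in limma, 4 were lower and 0 higher, beside 6.89% lower and 6.67% higher of all tested genes, and the median log2 difference was -0.12. *Dbh*, *Chat* and *Hand2* were among the lower genes. *Chat*, the acetylcholine synthesis gene, rested on very few reads (7.86, 5.17 and 1.99 in controls and 1.02, 0.98 and 0 in mutants). *Hand2*, a factor of noradrenergic neurons that mesenchyme also uses, was 434, 296 and 648 against 310, 281 and 297, with overlap (-0.56, adjusted p = 0.29). The high *Hand2* value of control pool 3 (648) came with high values of *Pitx1* and *Trp63*, markers of a stomach and oesophagus list, at 244 and 89.5 in that pool. *Pitx1* was 31 to 127 in the other controls and 16.7 to 24.5 in mutants. The list did not move as a set, since 4 of its 7 tested genes had a log2 difference above 0 and 3 below 0 (median 0.08). The whole list of 8 such markers summed to 2044–2436 in controls and 1993–2300 in mutants. The sum was 2436 in control pool 3 and 2300 in mutant pool 2, where *Hand2* was 281. The part of such tissue in the *Hand2* value was not tested. The difference of *Hand2* was -0.28 without control pool 3 (unadjusted p = 0.0536) and -0.02 with *Xist* as a covariate, whereas without control pool 2 it passed the test (-0.84, adjusted p = 0.038).

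*Tubb3* (chr8:123411424-123422015, plus strand) encodes the neuronal beta-tubulin. It was 330, 307 and 264 in controls (300 ± 33.3) and 349, 264 and 300 in mutants (305 ± 43.0), and the 2 ranges all but coincided at their lower end. The log2 difference was 0.02 (SE 0.12, 95% interval -0.25 to 0.28, adjusted p = 0.967). *Elavl4* (chr4:110203722-110351909, minus strand) encodes HuD, an RNA-binding protein of postmitotic neurons. It was 144, 164 and 164 in controls (158 ± 11.4) and 151, 143 and 177 in mutants (157 ± 17.5), with overlap and a log2 difference of -0.01 (SE 0.12, 95% interval -0.28 to 0.26, adjusted p = 0.984). The intervals allow a change of either gene of about -0.28 to 0.28 on the log2 scale.

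A list of 36 general neuron genes had 0 calls in limma, edgeR and DESeq2. At an unadjusted p under 0.05 in limma, 2 were higher and 2 lower (11.1%, beside 13.6% of all tested genes), with a median log2 difference of 0.04. *Uchl1*, an abundant neuronal deubiquitinase, was 827, 737 and 828 in controls and 689, 560 and 663 in mutants, without overlap (-0.33, adjusted p = 0.14). With *Xist* as a covariate the *Uchl1* difference was -0.32 (unadjusted p = 0.0286, adjusted p = 0.396, limma). *Crmp1*, a cytosolic protein of growing axons, was 1006, 588 and 1590 against 581, 498 and 543, and its control values were far apart. Its log2 difference of -0.86 (adjusted p = 0.195) passed without control pool 2 (-1.23, adjusted p = 0.0141) and was -0.17 with *Xist* as a covariate. The 2 higher genes were low in reads. *Snap25*, of the synaptic vesicle fusion complex, was 22.6, 15.5 and 9.94 against 25.5, 30.4 and 30.4, and *Nhlh2*, a factor of young neurons, was 7.86, 6.2 and 1.99 against 19.4, 9.8 and 12.8. Without control pool 3 neither stayed at an unadjusted p under 0.05 (*Snap25* 0.0593, *Nhlh2* 0.0534).

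**Figure D3:**
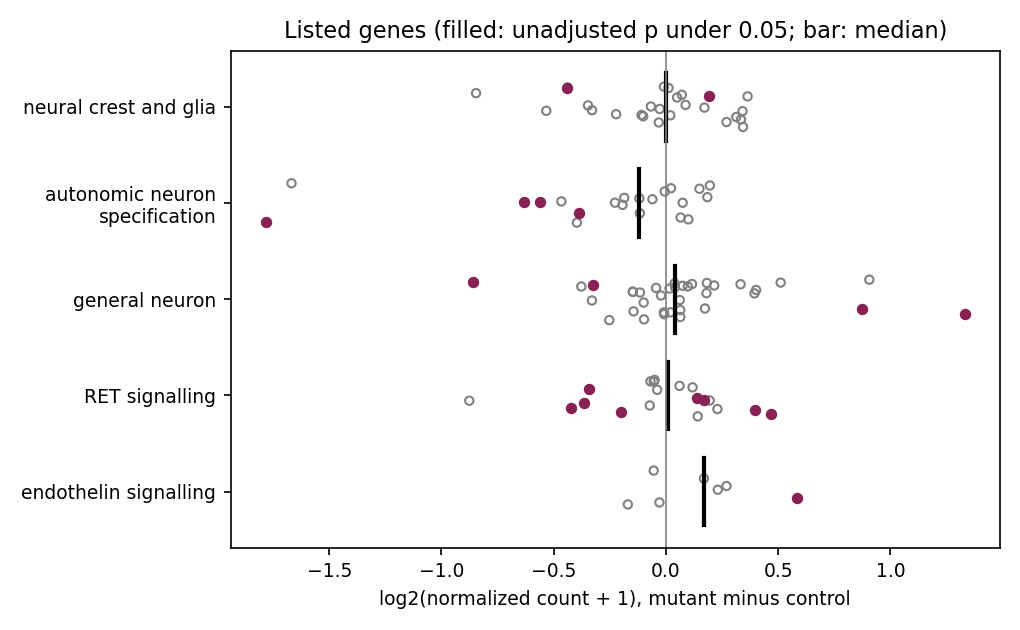
Mutant minus control difference on the log2(normalized count + 1) scale for each tested gene of the 5 lists, with filled points for an unadjusted p under 0.05 and a black bar at the median. The medians lie between -0.12 (autonomic) and 0.17 (endothelin), and no point has an adjusted p under 0.05 in limma.

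The 5 lists hold 103 genes other than the 7 members, of which 102 were tested. Of these, 8 were higher and 10 lower at an unadjusted p under 0.05 (17.6%, beside 13.6% of all tested genes), with a median log2 difference of 0.01, and limma called 0. Over all listed genes edgeR called 4 and DESeq2 3. All of these were in the RET list (*Grb7* and *Shc1* in both, *Gfra4* in edgeR, and *Etv5*, an ETS factor of FGF and RET signalling chosen after its values were seen, in both). *Etv5* was 5244, 6183 and 4522 in controls and 4549, 4639 and 4592 in mutants. It is also transcribed in the distal lung epithelium.

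The members also shared a pattern over pools. 6 of the 7 were lowest in mutant pool 2, beside 16.7% of all tested genes with their lowest value in that pool. For *Tubb3* the margin was small, since control pool 3 was also at 264. *Ednrb* was the exception, with its lowest value in control pool 3, as for 24.3% of all tested genes. *Sox10*, *Foxd3* and *Tubb3* were highest in mutant pool 1. Of the crest and glia list, 13 of 26 genes were lowest in mutant pool 2, as were 9 of 21 autonomic and 11 of 36 general neuron genes. These lists include members. The pattern was not particular to neural genes, since 12 of 20 epithelial markers were also lowest in that pool. Without mutant pool 2 the log2 differences were 0.17 for *Foxd3*, 0.07 for *Sox10*, 0.11 for *Tubb3* and 0.06 for *Elavl4*, none of them past the test. The 3 mutant pools thus differed among themselves in *Foxd3* and *Sox10* by more than the control pools did.

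**Figure D4:**
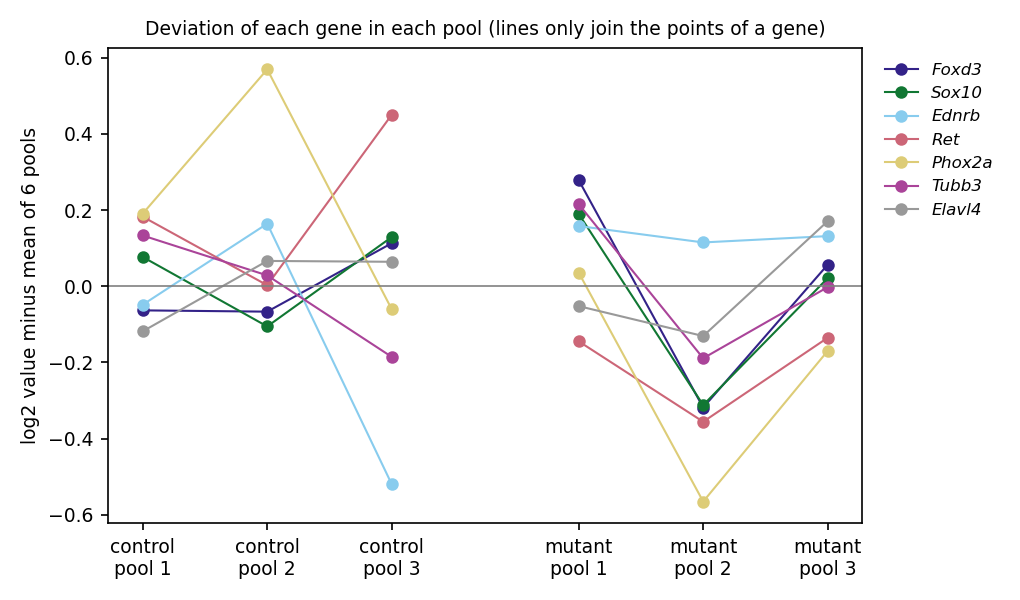
Log2(normalized count + 1) of each gene in each pool minus its mean over the 6 pools. In mutant pool 2 every gene but *Ednrb* lies below 0 and at its own lowest point, and in control pool 3 *Ednrb* is lowest while *Ret* is highest.

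Over the 6 pools, *Sox10* and *Foxd3* were the pair with the highest Pearson correlation of log2 values (r = 0.92) and *Ret* and *Ednrb* the pair with the lowest (r = -0.86). The other 19 pairs lay between -0.37 and 0.59. These are descriptions over 6 libraries that share their size factors and, in part, the group difference. Among 14584 genes with a mean of at least 10, those most like *Sox10* were *Gpc3*, *Mdp1* and *Ptger3* (r = 0.990, 0.983 and 0.982), and those most like *Foxd3* were *Gm10664*, *Actn2* and *Gpatch3* (0.984, 0.984 and 0.983). For *Ret* they were *Zfp932*, *Cd24a* and *Eml4* (0.995, 0.995 and 0.993), and for *Phox2a* *Polr3e*, *Tgfa* and *Tnfrsf19* (0.989, 0.988 and 0.985). For *Tubb3* they were *AW209491*, *Snrpd3* and *Srp14* (0.988, 0.980 and 0.977), and for *Elavl4* *Bmpr1b*, *Heatr5a* and *Adrb3* (0.981, 0.964 and 0.951). *Ednrb* was most like *Nans*, *Matn4* and *Ddx3y* (0.999, 0.997 and 0.997). *Ddx3y* lies on the Y chromosome and was 1016, 1198 and 735 in controls and 1212, 1198 and 1177 in mutants. Control pools 3 and 1 were the lowest and the next lowest of the 6 for both genes, and the order of the other 4 pools differed between them. With 603 genes above r = 0.9 for *Ednrb* and 26 to 340 for the others, such values are common over 6 points.

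Levels of different genes were compared per kilobase of exon (union of exons, GENCODE M21). The order of the mean over the 6 pools was *Ednrb* (778 normalized counts per kb), *Sox10* (223), *Tubb3* (162), *Foxd3* (60.6), *Ret* (35.5), *Elavl4* (29.2) and *Phox2a* (25.2). *Ednrb* stood apart, since its lowest pool (536) exceeded the highest pool of *Sox10* (253). *Sox10* (179–253) and *Tubb3* (141–187) overlapped. *Foxd3* (48.1–73.0) lay just above *Ret* (27.3–47.8), and *Ret*, *Elavl4* (26.6–32.8) and *Phox2a* (16.4–36.6) overlapped each other. On the same scale the coreceptor *Gfra1* (201) was above *Ret*, as was the ligand *Nrtn* (81.6). The ligands *Artn* (17.4, range 12.8–20.01) and *Gdnf* (12.0, range 5.28–30.6) overlapped each other.

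**Figure D5:**
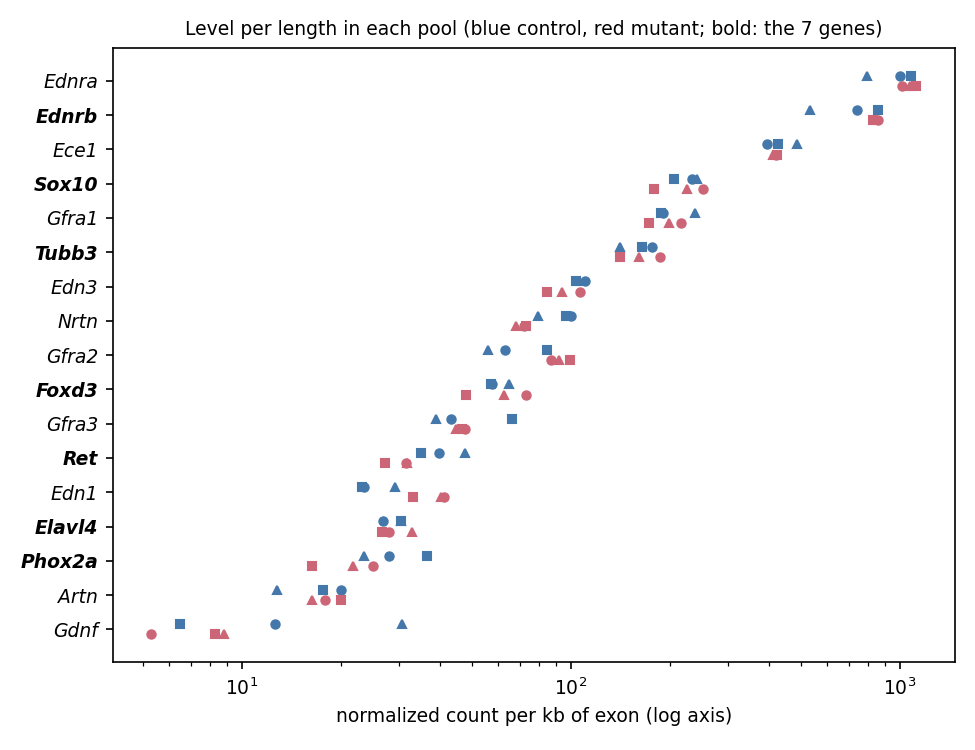
Normalized count per kilobase of exon (log axis) in each control pool (blue) and mutant pool (red) for the 7 genes (bold) and for ligand, coreceptor and related genes, with marker shapes for pools 1, 2 and 3. *Ednrb* leads the 7 genes at 536–861 over the pools and *Phox2a* is lowest at 16.4–36.6.

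The labels of the genes were checked against markers of other neural cells. Of 12 central nervous system markers, 10 were under 10 in every library, and *Nkx6-1*, at 364–718, made up most of their summed level of 387–774. Of the 14 sensory ganglion markers found, 4 were under 10 in every library, among them the sensory neuron factor *Pou4f1*. The list summed to 769–1289 in controls and 610–1074 in mutants. *Eya1* was 127–280 of it, so other sensory ganglion markers made up the larger part. Neuroendocrine markers, some of which neurons share, summed to 293–371 and 328–351. Control pool 3 had the highest sums of the sensory ganglion (1289) and central nervous system (774) lists. It was also highest for the autonomic list (3572, other pools 2287–2890) and the general neuron list (10055, other pools 8269–8894). Its crest and glia sum (18004) and its neuroendocrine sum (293) were the lowest of all pools. The part of this pool's makeup in the differences of single genes was not tested. The glial receptor gene *Erbb3* (774–835), the crest receptor gene *Ngfr* (635–966) and the peripheral neuron filament gene *Prph* (41.7–111) were detected in all pools. The counts of the 7 genes therefore come with transcripts of the crest and glia list and of the general neuron list in every library. They also come with sensory ganglion markers. Whole-lung RNA does not show which cells made these transcripts. *Tubb3*, *Elavl4* and *Ret* are not particular to the neurons inside the lung and also mark vagal nerve cells. *Ednrb* is not particular to the crest, since vascular and mesenchymal cells can transcribe it. Over the pools its r was -0.37 with *Sox10* and -0.19 with *Foxd3*.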

How the data were processed

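RNA-Seq values of 3 control and 3 mutant pools were analysed. In the deposited table the signal is normalized counts, reads that the authors divided by library size factors. The labels name Trim Galore, HISAT2, featureCounts, DESeq2 and mm10, with versions, roles and strand setting not given in the sources used here. Libraries were sequenced on BGISEQ-500 per the methods, whereas the labels name Illumina library protocols. The deposited log2 fold changes with their errors, the score of the test and its p-values belong to the authors' own comparison and were not used, and neither was the authors' mean column. In all 6 libraries 100% of values were integer multiples of a library's smallest unit (tolerance 0.01), giving 20197642 to 21276090 reads. For control pool 3 that unit is 0.994, so near 1 that its reads were not accepted as recovered, and the count tests used the other 5 libraries. Its values are not rounded and also came out whole, so a count test on all 6 libraries could be justified but was not run.

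limma 3.58.1 in R 4.3.3 (lmFit, eBayes with trend) was run on log2(normalized count + 1). It covered the 17168 genes that reached 1 normalized count in 3 or more libraries, and p-values were adjusted by Benjamini-Hochberg at a threshold of 0.05. A log2 difference on this scale understates the change of low genes. edgeR 4.0.16 (quasi-likelihood) and DESeq2 1.42.0 were alternatives. Replicate numbers come from the labels, which do not tie same-numbered pools together, and the pools hold different embryos. Tested on simulated data, limma and edgeR recovered most changed genes, but their false calls exceeded the nominal share when gene-wise dispersions were simulated and stayed under or near it with trended ones. The pass mark of that test was set on the trended simulation after the first run had failed.

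The members and lists were chosen with earlier results of these data known. Named genes are the 7 members, up to 4 further genes of each of 5 lists by lowest unadjusted p, RET and endothelin ligands and receptors, the 3 genes most correlated with each member, and markers of other cells beside a result; *Cdh1*, *Nkx6-1*, *Eya1*, *Pou4f1*, *Erbb3*, *Ngfr* and *Prph* are listed or marker genes added for description. Coordinates are from GENCODE M21 (GRCm38), in which 92.7% of symbols had a single position, and 27 symbols had been turned into dates. Some listed genes are not reported here by name.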

Additional observations from a re-analysis of the deposited data

How the results depend on the processing

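No member had an adjusted p under 0.05 in any alternative. The limma count over all genes was 86. It was 8 without the variance trend, 545 with edgeR and 404 with DESeq2 on 5 libraries, 65 without a filter, 74 with at least 10 in every library, 75 with a pseudocount of 0.1, 91 with upper-quartile normalization and 68 with *Xist* as a covariate, an alternative chosen after seeing the data. Leaving out 1 pool gave 1 to 468 (468 without control pool 3, 147 without control pool 2, 21 without mutant pool 2, 12 without mutant pool 1, and 1 without control pool 1 or mutant pool 3). A fit that leaves out a pool has fewer samples, and the *Xist* covariate goes partly with genotype. Among the listed genes the count was 0 and became 4 with edgeR, 3 with DESeq2, 1 with *Xist* as a covariate (*Grb7*) and 0 to 4 when 1 pool was left out: 4 without control pool 2 (*Crmp1*, *Gfra2*, *Hand2*, *Zeb2*) and 2 without control pool 3 (*Etv5*, *Grb7*). The cause of these changes was not tested.

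The signs of *Foxd3*, *Tubb3* and *Elavl4* turned in several alternatives, with differences of -0.20 to 0.17 on the log2 scale. *Sox10* turned only without mutant pool 2 (0.07) and *Ednrb* only with *Xist* as a covariate (-0.08). *Ret* (-0.53 to -0.26) and *Phox2a* (-1.0 to -0.30) did not turn. A block for the replicate number gave 71 calls over all genes and 0 among the members. Same-numbered pools correlated at -0.02, 0.10 and 0.03 in their deviations from the group means, and differently numbered ones at -0.11 to 0.08. With 3 pools a group, these values cannot show whether the numbers pair the samples. With the longest transcript as the length, levels per kb were 31.9 for *Phox2a*, 245.1 for *Sox10*, 44.0 for *Ret* and 37.9 for *Elavl4*, in the same order. *Chat*, *Nhlh2*, *Snap25* and *Gdnf* gave no value in some alternatives, where they were filtered or had no adjusted p. With 3 pools a group and low counts of *Phox2a*, small differences were not detectable.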
